A study of Mus musculus with 6 samples.

Results

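Protocadherins are cell adhesion proteins of the cadherin superfamily, and 71 of the 23337 gene rows counted in nuclear RNA of mouse neural precursor cells carried a symbol starting with Pcdh. All 71 were taken, whatever their level: 15 rows of the alpha cluster, 22 of the beta cluster, 22 of the gamma cluster and 12 non-clustered genes. The cells were grown from the dorsal forebrain of mouse embryos (E13.5), kept with EGF and basic FGF in the medium, and used at passage 6 to 7, and RNA came from the nuclear fraction at about 80% confluency. Fmr1 encodes FMRP, which binds RNA. By label, WT lines 3, 8 and 19 carried a wild-type Fmr1 gene, and KO lines 3, 13 and 16 an Fmr1 knockout, which makes 3 lines per genotype. The design text calls the lines independent, while the labels do not name the knockout allele, the strain or the embryos behind each line. The comparison asked how nuclear RNA differs between the genotypes.

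The clustered protocadherins lie in 3 neighbouring arrays on mouse chromosome 18. In the alpha and gamma arrays each gene has its own first exon, which encodes the whole extracellular part, and this exon is spliced to 3 downstream exons that all genes of the array share. Beta genes have a single large exon and lack the shared part. A neuron expresses a few of these genes, chosen promoter by promoter, and the resulting set of homophilic adhesion proteins gives it a surface identity, while the C-type genes at the end of the alpha and gamma arrays are expressed more evenly. The non-clustered genes are spread over several chromosomes, and their delta-1 and delta-2 subgroups differ in their cytoplasmic tails and act in cell sorting, axon growth and synapse formation.

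Total counts ran from 18702738 to 26789522 per library, and 53 of the 71 rows had enough counts to be tested, among 13925 genes in all. Levels are CPM, counts scaled to library size with edgeR's TMM factors. Every pair of lines of a genotype differed by more than counting noise, with chi-square values over their degrees of freedom from 10.8 (WT lines 3 and 8) to 91.5 (KO lines 3 and 16). WT line 19 and KO line 3 stood apart from the other lines of their labels. Fmr1 itself was lower than every WT line (223 to 274 CPM) in KO lines 13 and 16 (188 and 153 CPM), but higher in the library labelled KO line 3 (371 CPM), so the directions below are between KO-labelled and WT-labelled libraries. The precursor markers Nes (2447 CPM in WT and 2145 CPM in KO-labelled lines) and Sox2 (106 and 118.5 CPM) were present in both groups. Summed over 10 precursor markers, levels were 6350 to 7010 CPM in WT and 4686 to 6032 CPM in KO-labelled lines, and Vim was the 1 of the 10 that passed the test (2557 and 1831 CPM, edgeR adjusted p = 0.0306). Summed markers of other cell types moved with the labels too: neuronal markers were at 72.3 to 106 CPM in WT and 164 to 214 CPM in KO-labelled lines, oligodendrocyte precursor markers at 685 to 766 and 1110 to 1309 CPM, and astrocyte markers at 375 to 648 and 232 to 316 CPM. Their part in the results below was not tested. In bulk RNA, fewer cells of a type and less RNA per cell cannot be told apart.

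Protocadherin RNA was lower in the KO-labelled lines as a sum. The 71 rows summed to 761, 798 and 943 CPM in WT lines 3, 8 and 19. They summed to 523, 508 and 533 CPM in KO lines 3, 13 and 16, so the groups did not overlap. Most of the drop lay in Pcdhgc3 (mean 297 CPM in WT and 149 CPM in KO-labelled lines), Pcdh9 (95.6 and 27.8) and Pcdh7 (84.2 and 33.3). The alpha sum went the other way, from a mean of 2.952 to 7.155 CPM. Of the 53 tested rows, 5 rose and 16 fell in edgeR's quasi-likelihood test with Benjamini-Hochberg adjustment over all genes, which is 39.6% of them beside 42.3% of all 13925 tested genes. The overall share of calls was therefore near that of the whole table, and only the direction was uneven: 9.43% of the tested rows rose and 30.2% fell, beside 21.8% and 20.4% of all genes. Of the 53 rows, 48 reached the level of the filter (0.469 CPM) in all 6 libraries, and 4 of these rose and 14 fell. The called genes Pcdh20, Pcdhb9 and Pcdha12 passed the filter only through the group where they were higher, so they are described by their counts and support nothing. The median log2 fold change, KO minus WT, was -0.31 over the tested rows and 0.01 over all genes. Rows whose 6 values did not overlap between the labels numbered 6 with KO above and 18 with KO below, beside 28.6% and 25.7% of all genes. The count of 16 was 14 without WT line 19 and KO line 3 together, 9 without WT line 19, 10 without WT line 8 and 8 without KO line 13. Among the 14 alternative settings, calls that held in every one were those of Pcdh1, Pcdh7, Pcdh9, Pcdh10, Pcdh15, Pcdh19, Pcdhac2, Pcdhb14, Pcdhga7 and Pcdhgc3.

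Of the 10 tested non-clustered genes, 3 were called higher and 5 lower, beside 21.8% and 20.4% of all genes. Pcdh9 and Pcdh7, delta-1 members with the highest levels per kilobase of this class in WT, fell, while Pcdh10, a delta-2 member needed for axon growth in the forebrain, rose. The stretches of 250 bases that precede the RefSeq start sites of Pcdh9, Pcdh10 and Pcdh19 (build GRCm38.p6) are shown because these genes lie outside the clusters and moved in opposite directions. Each is written 5′ to 3′ on the gene's strand, and capitals mark CGCT on either strand (CGCT or AGCG, overlapping matches counted), the letters at the core of a box that many promoters of the clustered genes share. Pcdh9 and Pcdh19, which fell, are shown first.
Pcdh9, chr14:93890680-93890929, minus strand: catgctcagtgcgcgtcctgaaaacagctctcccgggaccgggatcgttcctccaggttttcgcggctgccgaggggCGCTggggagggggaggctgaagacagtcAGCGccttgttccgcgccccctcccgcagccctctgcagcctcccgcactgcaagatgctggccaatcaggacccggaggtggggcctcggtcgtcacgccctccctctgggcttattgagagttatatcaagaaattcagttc
Pcdh19, chrX:133688994-133689243, minus strand: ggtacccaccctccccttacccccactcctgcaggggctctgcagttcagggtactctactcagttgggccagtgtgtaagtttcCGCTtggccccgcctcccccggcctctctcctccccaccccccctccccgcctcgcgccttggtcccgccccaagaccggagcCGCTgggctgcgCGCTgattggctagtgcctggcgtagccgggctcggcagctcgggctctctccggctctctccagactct
Pcdh10, chr3:45378148-45378397, plus strand: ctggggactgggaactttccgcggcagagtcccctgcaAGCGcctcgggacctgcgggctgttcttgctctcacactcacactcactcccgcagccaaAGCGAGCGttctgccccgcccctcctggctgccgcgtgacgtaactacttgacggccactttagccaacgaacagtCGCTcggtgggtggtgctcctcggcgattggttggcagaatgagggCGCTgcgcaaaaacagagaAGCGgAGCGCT
The letters occurred 8 times before Pcdh10, 3 times before Pcdh19 and 2 times before Pcdh9. Among the other non-clustered genes in the table, Pcdh18 held 7 matches and Pcdh17 2, neither of which passed the test, Pcdh8 held 5, Pcdh15 and Pcdh7 held 3 each, and Pcdh20 held 1. The called genes Pcdh1 and Pcdh11x were not among these stretches, and 114 of the 250 bases before Pcdh7 lie in an annotated exon. Whether the number of matches goes with the direction of change was not tested. Of 32851 stretches of the same length in the RefSeq table, 55.7% held at least 1 match, the median was 1, and 0.612% held 8 or more. All 3 were rich in CpG dinucleotides, with 18, 16 and 22 for Pcdh9, Pcdh19 and Pcdh10 beside a median of 6. A match describes the letters and is no evidence of a bound factor.

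Pcdh9 (ENSMUSG00000055421.8, chromosome 14, 93013410 to 93890679 in GRCm38, minus strand), a delta-1 protocadherin of cortical and other brain circuits, measured 87.2, 86.3 and 113 CPM in WT lines 3, 8 and 19 and 29.1, 28.9 and 25.3 CPM in KO lines 3, 13 and 16. The 3 KO-labelled lines lay close together and far below the lowest WT line, a log2 fold change of -1.78 (edgeR adjusted p = 4.10e-05, SE 0.14). Pcdh7 (ENSMUSG00000029108.14, chromosome 5, 57717967 to 58133230), also delta-1, was at 76.1, 76.6 and 99.8 CPM in WT and 40.4, 28.8 and 30.7 CPM in KO-labelled lines. Its log2 fold change was -1.34 (edgeR adjusted p = 3.72e-04, SE 0.17), with the library labelled KO line 3 nearest to WT. Pcdh1, a delta-1 member first studied in epithelia, was at 19.5, 15.8 and 29.6 CPM against 9.24, 10.9 and 12.7 CPM. It fell by 0.97 on the log2 scale (edgeR adjusted p = 0.00917, SE 0.23), or by 0.58 without WT line 19 and KO line 3.

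The fourth delta-1 gene went the other way. Pcdh11x, on the X chromosome (120290259 to 120910619), was at 6.69, 6.79 and 6.83 CPM in WT and 16.8, 10.7 and 8.54 CPM in KO-labelled lines, so WT lines were nearly equal and KO-labelled lines spread over a wide range above them. Its log2 fold change was 0.82 (edgeR adjusted p = 0.0208, SE 0.24). The call ended without WT line 8 (adjusted p = 0.0631) or WT line 19 (adjusted p = 0.0555), and the value was 0.51 without KO line 3. Pcdh9 and Pcdh7 together held 55.4% of non-clustered counts in WT line 3 (95% Wilson interval 54.3 to 56.5), 59.5% in WT line 8 (58.1 to 60.8) and 60.6% in WT line 19 (59.4 to 61.8). In KO lines 3, 13 and 16 they held 32.5% (31.1 to 34.0), 34.2% (32.7 to 35.7) and 32.4% (31.0 to 33.9). The make-up of the class thus differed between the labels independently of any scaling between libraries. These intervals cover counting error only.

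Among delta-2 genes, Pcdh10 (ENSMUSG00000049100.15, chromosome 3, 45378398 to 45435623) rose, Pcdh19 fell and the others did not pass. Pcdh10 was at 18.6, 9.67 and 13.8 CPM in WT and 43.2, 29.3 and 33.2 CPM in KO-labelled lines, a log2 fold change of 1.32 (edgeR adjusted p = 0.00239, SE 0.24). Its share of non-clustered counts was 3.53% to 6.33% in WT and 17.3% to 20.2% in KO-labelled lines. Pcdh19 (ENSMUSG00000051323.16, X chromosome, 133582860 to 133688987), whose loss in people causes an X-linked epilepsy, was at 51.0, 47.0 and 54.3 CPM in WT and 31.1, 23.3 and 28.6 CPM in KO-labelled lines. It fell with a log2 fold change of -0.88 (edgeR adjusted p = 0.00102, SE 0.13).

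Pcdh17, known from corticobasal ganglia circuits, was at 12.8, 9.77 and 12.6 CPM in WT and 13.6, 9.93 and 9.44 CPM in KO-labelled lines. Pcdh18 was at 16.9, 16.1 and 14.3 CPM against 18.05, 16.5 and 16.2 CPM. Neither passed the test, with 95% intervals of the log2 fold change from -0.51 to 0.32 for Pcdh17 and from -0.18 to 0.38 for Pcdh18. Any change in these genes was therefore smaller than that of Pcdh9, Pcdh7 or Pcdh10 as estimated. Pcdh8, an activity-induced gene of neurons, held 13, 3 and 6 counts in WT and 7, 8 and 9 in KO-labelled lines and was not tested.

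Both X-linked members were set beside the X-inactivation RNA Xist, which was high in WT lines 3 and 8 and KO line 3 (15460, 18420 and 20500 CPM) and low in WT line 19, KO line 13 and KO line 16 (81.7, 3.34 and 1.67 CPM). Among Xist-high lines Pcdh19 was at 51.0 and 47.0 CPM in WT and 31.1 CPM in the library labelled KO line 3. Among Xist-low lines it was at 54.3 CPM in WT and 23.3 and 28.6 CPM in KO-labelled lines, so the difference kept its direction in both. Pcdh11x was likewise lower in WT than in KO-labelled lines within each Xist state. With Xist state as a covariate in the edgeR fit both calls remained. RNA from the Y chromosome (Uty, Kdm5d, Eif2s3y and Ddx3y added up) ran opposite to Xist. It was at 33.05, 10.1 and 0.69 CPM in WT lines 3 and 8 and KO line 3. In WT line 19 and KO lines 13 and 16 it was at 719, 423 and 358 CPM. By these values Xist-high lines were mainly of female type and Xist-low lines mainly of male type, so sex was unbalanced between the labels. WT line 19 and KO line 3, which stood apart, were each the only line of their type in their label. The split was less clean in WT. WT lines 3 and 8 held 904 and 200 Y-linked counts, beside 13 in KO line 3. WT line 19 held 1508 Xist counts, beside 79 and 39 in KO lines 13 and 16. The reason was not tested.

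The remaining non-clustered genes were Pcdh15, Pcdh20 and Pcdh12. Pcdh15, which forms the tip links of inner ear hair cells, was at 4.94, 4.81 and 5.42 CPM in WT and 11.5, 9.89 and 7.63 CPM in KO-labelled lines (log2 fold change 0.94, edgeR adjusted p = 0.00363, SE 0.18). Pcdh20 had 13, 18 and 24 counts in WT and 8, 4 and 1 in KO-labelled lines. The fitted log2 fold change was -2.08 (SE 0.63), from a gene that passed the filter only through the WT lines, and its call ended without WT line 8, WT line 19, KO line 13 or KO line 16. Pcdh12, typical of endothelium, had 4 counts in each WT line and 1 or 2 in each KO-labelled line, too few to be tested. The endothelial gene Cdh5 had 2 counts over the WT lines and 2 over the KO-labelled lines, but it was 1 of 7 endothelial markers. These summed to 9.54, 11.2 and 9.54 CPM in WT lines 3, 8 and 19. In KO lines 3, 13 and 16 they summed to 15.2, 10.1 and 11.45 CPM. Of the 5 that were tested, 1 was called higher and 1 lower, beside 21.8% and 20.4% of all genes.

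**Figure D1:**
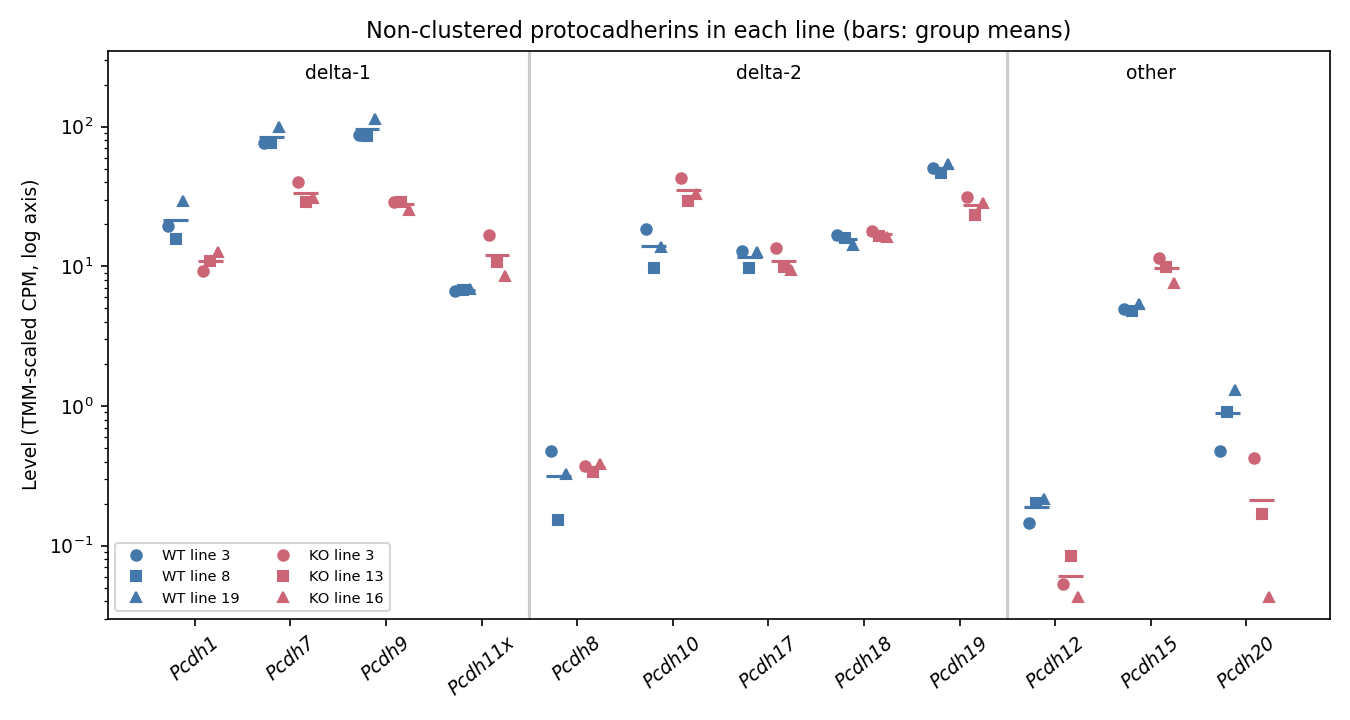
Level of each non-clustered protocadherin in the 6 lines, in TMM-scaled CPM on a log axis, with WT lines in blue, KO-labelled lines in red and horizontal bars at the group means. Pcdh1, Pcdh7, Pcdh9 and Pcdh19 lay lower in all 3 KO-labelled lines, Pcdh10, Pcdh11x and Pcdh15 lay higher in all 3, and Pcdh17 and Pcdh18 overlapped.

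The 59 clustered rows cover chromosome 18 from 36930184 to 37187661 for alpha, 37264938 to 37524479 for beta and 37661793 to 37841873 for gamma (GRCm38, plus strand). In GENCODE, the alpha genes share 2860 bases, beside first exons of their own of 2346 to 3028 bases, and gamma genes other than Pcdhgb8 share 2116 to 2119 bases. Pcdha1 held 1 count in WT line 3, 1 in KO line 16 and 0 in the other lines although Pcdhac2, which shares the same downstream exons, held 30 to 129 counts, so reads in shared exons had not been added to every gene of the array. Whether such reads were dropped or given to 1 gene is not known. Levels are given per kilobase of unshared exon, which is too high for a gene that received them: over all its exons Pcdhgc3 was at 63.4 CPM per kilobase in WT and 31.7 in KO-labelled lines, and Pcdhac2 at 0.37 and 0.82. Copies are alike in places too: the median share of 50-base words of a gene's own exon that recur in another member was 14.7% for alpha, 4.26% for beta and 0.73% for gamma, with the highest at 23.4% (Pcdha7). Reads from those stretches cannot be assigned to 1 gene, so values of closely similar copies are less certain. Pcdha4 and the row Pcdha4-g both had 0 counts in all 6 lines. In GENCODE another gene, Gm42416, covers 2410 bases of the exons of Pcdha4, which leaves it 93 unshared bases. Its reads may therefore not have been assigned to it, so the 0 counts set no limit on its level. Pcdha4-g was not found in GENCODE.

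The alpha cluster was the lowest of the 3 arrays. Its 15 rows summed to 110, 43 and 49 counts in WT lines 3, 8 and 19 and to 119, 192 and 163 counts in KO lines 3, 13 and 16, or 4.02, 2.18 and 2.66 CPM against 6.36, 8.12 and 6.99 CPM. The sum was higher in each KO-labelled line than in any WT line, the reverse of the gamma array. Most of it came from Pcdhac2 (ENSMUSG00000102697.1, chromosome 18, 37143503 to 37187657), a C-type gene known for the tiling of serotonergic axons, which held 63.2% to 79.1% of alpha counts. Pcdhac2 was at 3.18, 1.52 and 1.90 CPM in WT and 4.59, 5.45 and 4.42 CPM in KO-labelled lines and rose with a log2 fold change of 1.11 (edgeR adjusted p = 0.0108, SE 0.27). The other C-type gene, Pcdhac1, had 2, 1 and 1 counts in WT and 5, 11 and 7 in KO-labelled lines and was not tested.

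Pcdha12, the last numbered gene before the C-type genes, was the only numbered alpha gene with enough counts for a test. It had 4, 2 and 3 counts in WT and 10, 19 and 26 in KO-labelled lines, with a fitted log2 fold change of 2.55 (SE 0.45). It passed the filter only through the KO-labelled lines, so this is a description of few counts. Pcdha11, the gene before it, had 0 counts in WT and 2, 5 and 1 in KO-labelled lines, at least 2.63-fold higher against a floor of 3 counts over the WT lines. Of the 12 numbered rows that were not tested, 9 had more counts over the KO-labelled than over the WT lines, and none held more than 7 counts in a line. The numbered rows together summed to 0.77, 0.61 and 0.70 CPM in WT and 1.496, 2.20 and 2.27 CPM in KO-labelled lines.

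Of 19 tested beta genes, 0 were called higher and 5 lower, beside 21.8% and 20.4% of all genes (at an unadjusted p under 0.05, Pcdhb10 was higher, and limma-voom called it). The count of 5 was 1 without KO line 13, 2 without WT line 8 and 3 without WT line 3, WT line 19 or KO line 16. Their sum was 80.9, 101 and 84.1 CPM in WT and 79.4, 72.5 and 62.1 CPM in KO-labelled lines, so WT line 3 and the library labelled KO line 3 nearly met. WT line 8 held the highest value of the 6 lines in 14 of the 22 genes. Pcdhb14 differed most clearly, at 4.31, 5.47 and 4.55 CPM in WT and 1.82, 1.77 and 2.49 CPM in KO-labelled lines (log2 fold change -1.23, edgeR adjusted p = 0.00196, SE 0.21). Pcdhb9 was at 0.91, 1.013 and 0.98 CPM against 0.53, 0.30 and 0.39 CPM, a fitted log2 fold change of -1.26 (SE 0.32) in a gene that passed the filter only through the WT lines. Of the genes beside Pcdhb14 and Pcdhb9, Pcdhb13, Pcdhb15 and Pcdhb10 had log2 fold changes of -0.19, 0.23 and 0.87 that did not pass, and Pcdhb8, with 36 counts over the WT lines and 26 over the KO-labelled lines, was not tested. The differences between neighbours were not tested.

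The other called beta genes moved by smaller amounts. Pcdhb17 was at 11.4, 11.9 and 10.7 CPM in WT and 8.55, 7.95 and 7.51 CPM in KO-labelled lines (log2 fold change -0.50), and Pcdhb22, the last gene of the array, at 11.6, 13.8 and 10.95 against 8.92, 9.64 and 8.75 CPM (-0.41). Pcdhb7 (-0.77, edgeR adjusted p = 0.0496) was at the edge of the threshold and lost its call in 12 of 14 alternative settings, as did Pcdhb22 in 7 and Pcdhb17 in 3. Just outside lay Pcdhb18 (-0.70, adjusted p = 0.0544), which was called lower when KO line 3 was left out (-0.99) and with limma-voom (-0.75). The most abundant gene per length, Pcdhb20, was at 10.8, 14.4 and 11 CPM in WT and 12.1, 11.2 and 10.2 CPM in KO-labelled lines, with a 95% interval of the log2 fold change from -0.47 to 0.24.

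Level followed position in the beta array. The first gene, Pcdhb1, held 0 or 1 count in every line, while Pcdhb20, near the other end, was at 3.39 CPM per kilobase in WT and 3.14 in KO-labelled lines. Spearman's rho between order along the chromosome and level per kilobase was 0.85 in WT and 0.80 in KO-labelled lines over the 22 genes, a description across genes that share libraries and differ in length and mappability. The 11 genes at the far end (Pcdhb12 to Pcdhb22) summed to 79.2 ± 9.99 CPM in WT and 62.7 ± 8.32 CPM in KO-labelled lines (SD, n = 3), against 9.57 ± 1.011 and 8.59 ± 0.43 CPM for Pcdhb1 to Pcdhb11. The fold changes did not follow position (rho -0.09 over 19 genes). The same measure for the gamma array was 0.37 in WT and 0.26 in KO-labelled lines for level and -0.20 for fold change over 22 genes.

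**Figure D2:**
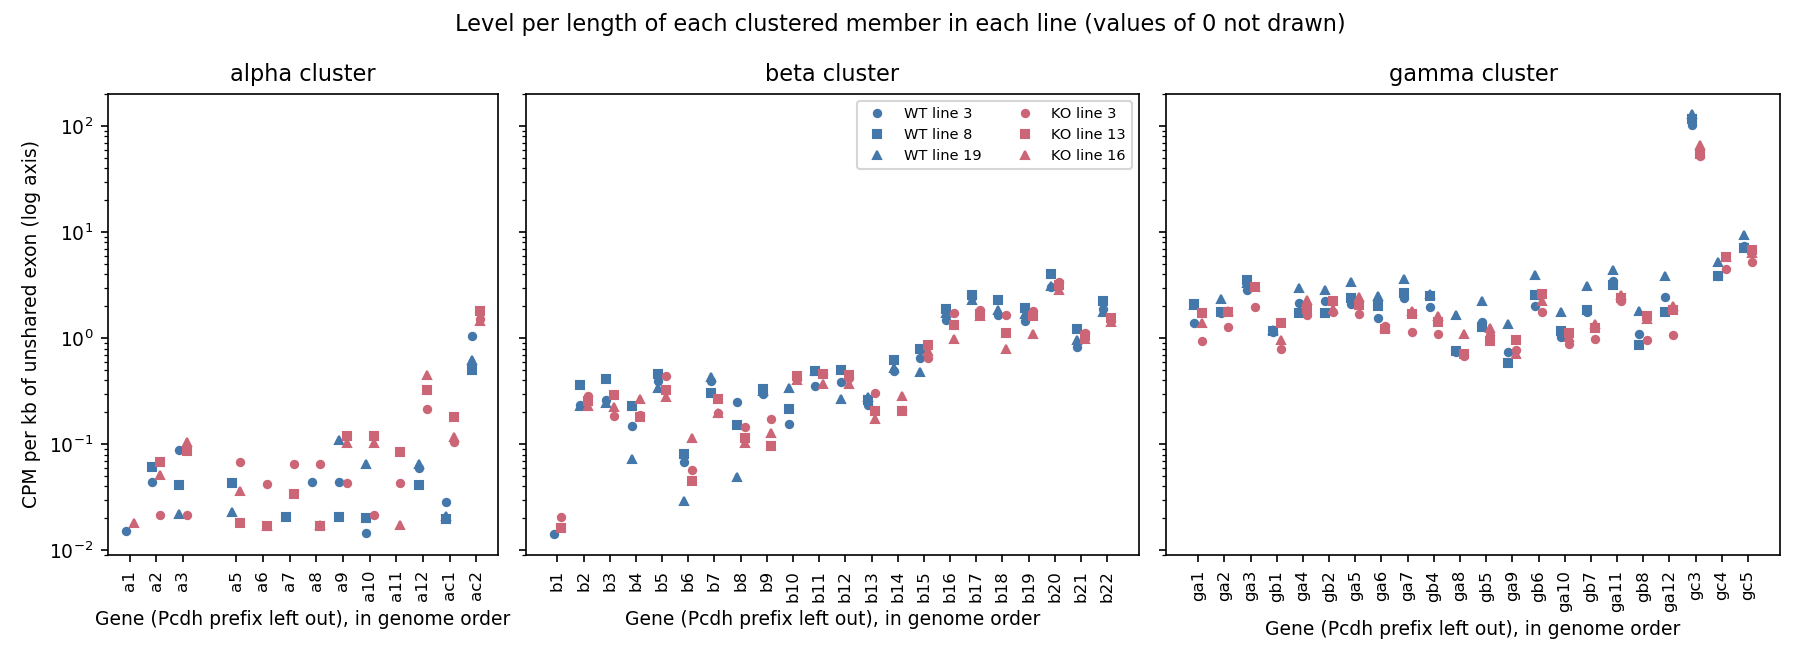
Level of each clustered member in each line, in CPM per kilobase of exon not shared with another gene (log axis, values of 0 not drawn), with genes in genome order from left to right, WT in blue and KO-labelled lines in red. Alpha genes lie lowest, beta genes climb along the array from Pcdhb1, and Pcdhgc3 lies far above the other gamma genes at 116 CPM per kilobase in WT and 57.9 in KO-labelled lines.

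The gamma cluster carried most of the clustered RNA and fell as a sum. Its 22 rows were at 382, 421 and 505 CPM in WT lines 3, 8 and 19 and at 223, 258 and 291 CPM in KO lines 3, 13 and 16, with no overlap. Of the 22 genes, all of which were tested, 6 fell and 0 rose, beside 20.4% and 21.8% of all genes (at an unadjusted p under 0.05, 8 genes were lower and 0 higher, and limma-voom and DESeq2 called 0 higher). The count of 6 was 2 without WT line 19, 3 without KO line 13 and 4 without WT line 8. Without KO line 3, Pcdhgc4 was called higher. The fold change was negative in 20 of 22, with a median of -0.36.

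A single gene dominated that sum. Pcdhgc3 (ENSMUSG00000102918.1, chromosome 18, 37806364 to 37841873), a C-type gene, was at 261, 298 and 331 CPM in WT and 133, 140 and 172 CPM in KO-labelled lines, a log2 fold change of -0.997 (edgeR adjusted p = 6.42e-04, SE 0.14). It was the most abundant protocadherin in every line. Its share of gamma counts was 68.5% in WT line 3 (95% Wilson interval 67.6 to 69.4), 70.9% in WT line 8 (69.9 to 71.9) and 65.7% in WT line 19 (64.7 to 66.6). In KO lines 3, 13 and 16 the share was 59.9% (58.4 to 61.3), 54.4% (53.2 to 55.7) and 59.4% (58.2 to 60.5). The share was lower in each KO-labelled line than in any WT line, a description with no test, and the intervals cover counting error within a library only.

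The other C-type genes follow it in the array. Pcdhgc4, the C-type gene known to protect interneurons from cell death, was at 11.3, 11.2 and 15.3 CPM in WT and 13.1, 16.8 and 16.9 CPM in KO-labelled lines. It missed the threshold, with a 95% interval of the log2 fold change from -0.07 to 0.70 that lay wholly above that of Pcdhgc3, from -1.31 to -0.69. Without KO line 3 it was called higher (log2 fold change 0.43, edgeR adjusted p = 0.0317), as it was when WT line 19 was left out too (0.59, adjusted p = 0.00319). Its share of gamma counts was 2.67% to 3.03% in WT and 5.83% to 6.52% in KO-labelled lines. Pcdhgc5 was at 19.6, 18.4 and 24.7 CPM in WT and 13.8, 17.7 and 16.8 CPM in KO-labelled lines (-0.38, adjusted p = 0.0783), and was called with Xist state as a covariate (-0.49, adjusted p = 0.00756). The difference between these 3 genes' fold changes was not tested.

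**Figure D3:**
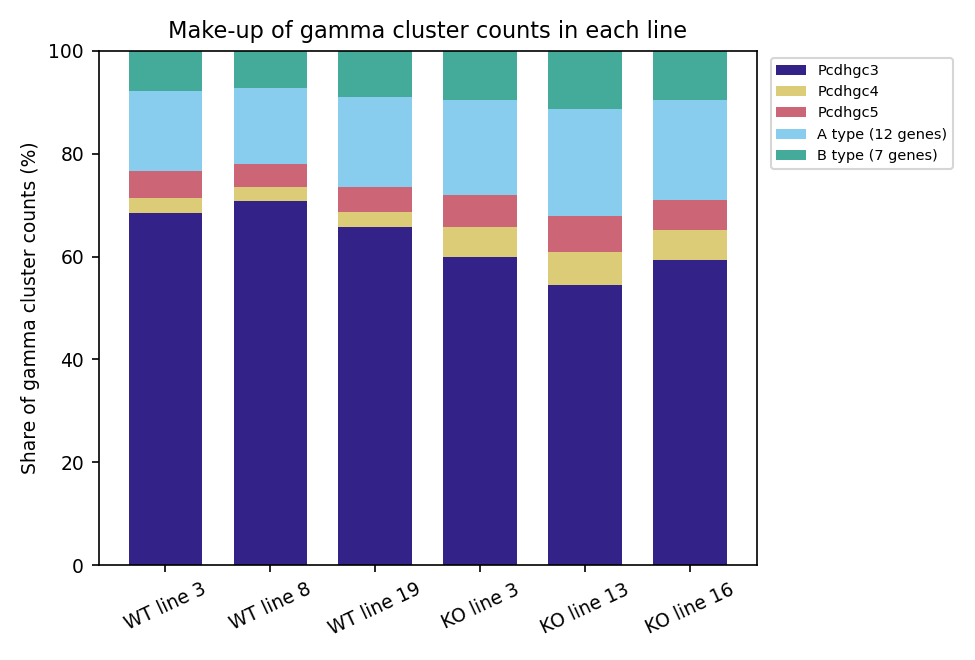
Make-up of the counts of the gamma cluster in each line, as a percentage of all gamma counts, for the C-type genes Pcdhgc3, Pcdhgc4 and Pcdhgc5 and the summed A-type and B-type genes. Pcdhgc3 held 65.7% to 70.9% in the WT lines and 54.4% to 59.9% in the KO-labelled lines, and Pcdhgc4, A-type and B-type genes took larger shares in the latter.

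The 19 A-type and B-type gamma genes, which are chosen promoter by promoter in neurons, were present at similar levels in these cells, from 0.90 to 3.69 CPM per kilobase in WT. They summed to 89.4, 92.8 and 133 CPM in WT lines 3, 8 and 19 and to 62.5, 83.1 and 84.4 CPM in KO lines 3, 13 and 16, so the groups did not overlap but WT lines 3 and 8 came close to KO lines 13 and 16. WT line 19 held the highest of the 6 values in 16 of these 19 genes, and the library labelled KO line 3 the lowest in 14. Of the 19, 5 fell and 0 rose, beside 20.4% and 21.8% of all genes. Pcdhga7 was at 6.32, 6.99 and 9.38 CPM in WT and 2.99, 4.44 and 4.76 CPM in KO-labelled lines (log2 fold change -0.88, edgeR adjusted p = 0.0132, SE 0.23), or -0.53 without WT line 19 and KO line 3. Its neighbour Pcdhgb4 was at 4.97, 6.33 and 6.61 CPM against 2.78, 3.59 and 4.12 CPM (-0.76), and Pcdhga6, on its other side, at 4.09, 5.32 and 6.504 against 3.42, 3.21 and 3.35 CPM (-0.67).

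Pcdhgb7 (-0.89) and Pcdhga11 (-0.60), neighbours further along, were the other 2 that fell. Pcdhgb7 was at 4.57, 4.76 and 8.13 CPM in WT and 2.56, 3.21 and 3.52 CPM in KO-labelled lines, and Pcdhga11 at 9.18, 8.30 and 11.7 against 5.98, 6.38 and 6.78 CPM. Without WT line 19 and KO line 3 together Pcdhga6 (-0.51), Pcdhgb7 (-0.47) and Pcdhga11 (-0.41) were no longer called, and only 3 gamma genes fell. Pcdhgb4 was lost without WT line 8 or WT line 19. Among the 14 that did not pass, fold changes ran from -0.70 for Pcdhga12 to 0.14 for Pcdhgb8, which GENCODE lists as a polymorphic pseudogene.

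**Figure D4:**
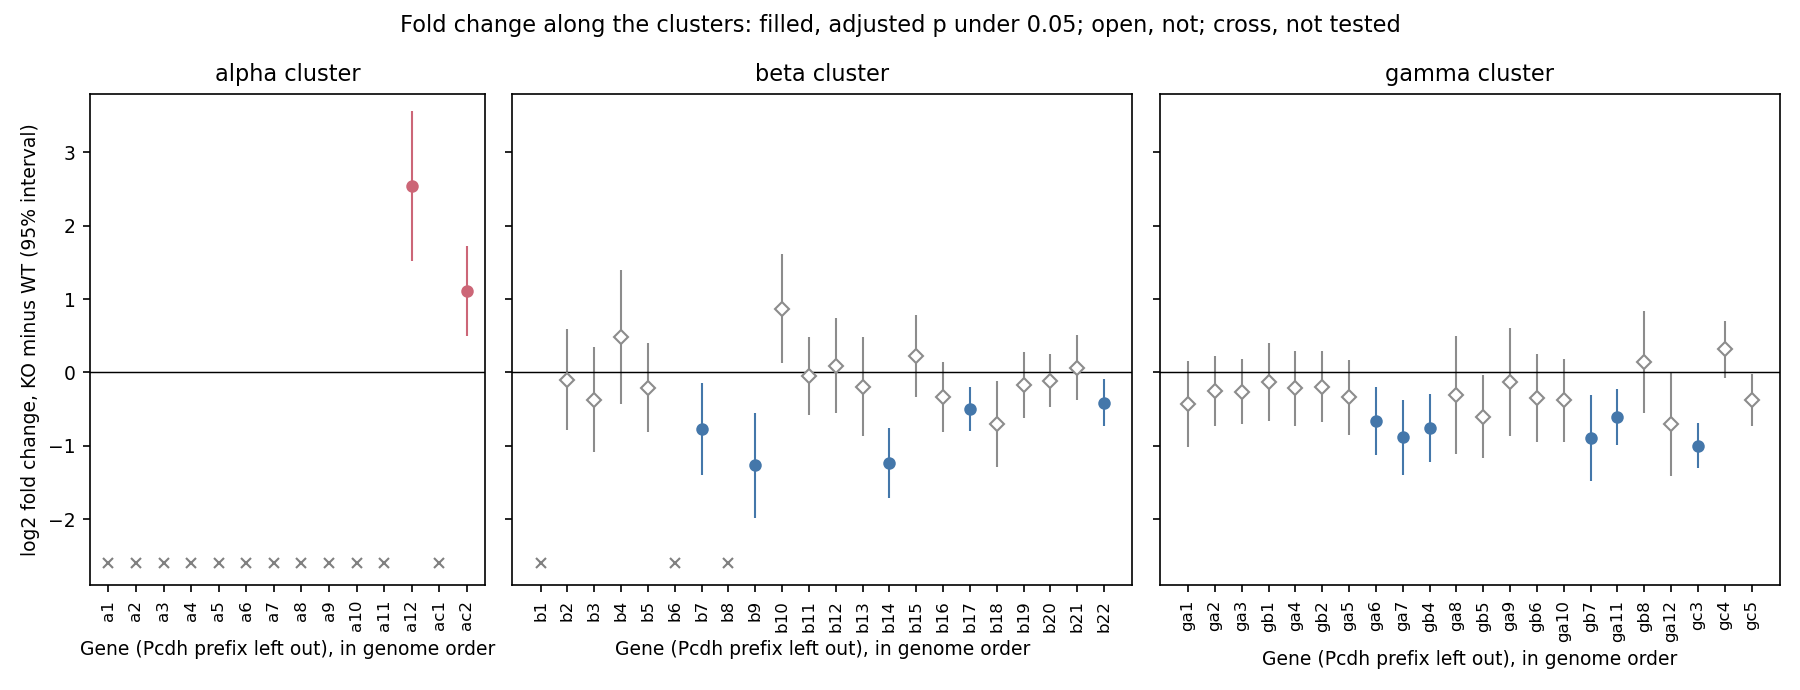
Log2 fold change, KO minus WT, of each tested clustered gene in genome order, with its 95% interval; filled points passed edgeR's test, open points did not, and crosses mark genes that were not tested. Both tested alpha genes lie above 0, beta genes lie from -1.26 (Pcdhb9) to 0.87 (Pcdhb10), and gamma genes lie below 0 except Pcdhgb8 and Pcdhgc4.

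Genes that act on or with protocadherins were read from lists, all counted beside 21.8% higher and 20.4% lower among all tested genes. Of 24 tested genes that act on promoter choice in the clusters (CTCF, cohesin, DNA methylation and repressor genes), 10 rose and 0 fell, with a median log2 fold change of 0.26. The CTCF-binding zinc finger gene Wiz rose from 86.4 ± 6.93 to 181 ± 12.8 CPM, the DNA methyltransferase gene Dnmt1 from 434 ± 35.9 to 780.0 ± 60.5 CPM and the co-repressor gene Trim28 from 321 ± 21.8 to 502.5 ± 51.7 CPM (SD, n = 3 each). Ctcf itself was at 167 ± 5.76 and 188 ± 20.7 CPM and did not pass (edgeR adjusted p = 0.239), nor did the cohesin gene Rad21 (0.06), the silencer Smchd1 (-0.03) or Dnmt3b (-0.06, log2 fold changes).

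Of 17 tested partners of protocadherin tails, 7 rose and 3 fell. Ptk2, which encodes focal adhesion kinase, a kinase bound and held inactive by alpha and gamma tails, rose from 182 ± 4.56 to 365 ± 53.0 CPM, while its relative Ptk2b fell from 5.07 ± 0.54 to 1.40 ± 0.16 CPM (SD, n = 3 each). The WAVE complex gene Wasf1, whose complex binds delta-2 tails, rose from 32.0 ± 1.22 to 66.2 ± 6.35 CPM, and the adaptor Dab1 from 18.6 ± 3.51 to 110 ± 39.0 CPM. Of 7 proteases that cut protocadherins, 1 fell and 0 rose: Adam10, which sheds the extracellular part of gamma protocadherins, fell from 350 ± 19.7 to 123 ± 23.6 CPM (log2 fold change -1.51, edgeR adjusted p = 1.07e-04, SE 0.14).

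Other cadherins moved in both directions. Of 16 tested classical cadherins and catenins, 6 rose and 5 fell, such as Ctnna2 (log2 fold change 2.30), Cdh24 (0.83) and Jup (-1.05), with a median of 0.08. Of 13 large cadherins 5 rose and 1 fell, with a median of -0.10. The giant cadherins Fat4 and Fat3 rose from 32.1 ± 4.803 to 107 ± 8.90 CPM and from 26.9 ± 2.95 to 96.8 ± 18.3 CPM, and Cdhr1 from 1.26 ± 0.17 to 5.06 ± 1.10 CPM (SD, n = 3 each).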

How the data were processed

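RNA of the nuclear fraction was sequenced in 6 lines, 3 per genotype label. The deposited values are the authors' whole-number counts of reads per gene, 1 column for each sample, not normalized. Build mm10 and the tools cutadapt 1.14, STAR, DESeq2 and HTSeq 0.7.2 come from the submitters' processing notes. The sources used here do not name the annotation, strand setting or handling of reads in shared exons, so a gene and an antisense partner cannot be told apart. From these counts, edgeR 4.0.16 in R 4.3.3 fitted genotype over the 6 samples (filterByExpr, TMM, robust quasi-likelihood) across all genes, with two-sided p-values adjusted by Benjamini-Hochberg and a threshold of 0.05. The SE was derived from the F statistic. Alternatives were DESeq2 1.42.0, limma-voom (limma 3.58.1), other size factors and filters, an Xist covariate and left-out lines. The fits were tested on simulated data. P-values set the difference between the labels against the spread between these lines, with variance estimates shared in part across genes.

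Of the 71 symbols, 70 were found in GENCODE M21 (GRCm38), where Pcdha11 names more than 1 gene: the one nearest the RefSeq start of Pcdha10 was taken as Pcdha10. Exon lengths used transcripts linked to RefSeq. The members and gene lists were chosen with earlier results of these data known. Genes named were every non-clustered and C-type member, the other members past the threshold (12 at most), and up to 3 genes per further list by smallest p. Values named outside that rule (Pcdhb10, Pcdhb13, Pcdhb15, Pcdhb18, Pcdhb20, Pcdha11, Pcdhga12, Pcdhgb8, Pcdhb8, Vim, Nes, Sox2, Cdh5, Ctcf, Rad21, Smchd1, Dnmt3b, Ptk2) were chosen after they were seen.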

Additional observations from a re-analysis of the deposited data

How the results depend on the processing

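Over 14 alternative settings, 11 of the 21 called members kept their call in each that tested them, Pcdha12 among them, which was not tested with a minimum of 1 CPM in 3 libraries. The number of members called higher was 5, and 8 when both WT line 19 and KO line 3 were left out, with Pcdhb10 (log2 fold change 1.24), Pcdhgb8 (0.67) and Pcdhgc4 (0.59) added. Leaving out 1 line gave 4 to 6 members higher and 8 to 17 lower, with 16 lower in the main result. Genes called in the whole table numbered 5884, and 4262 to 7610 with 1 line left out. Gamma genes called lower rose from 6 to 11 with Xist state as a covariate. Without a filter on low counts 69 members were tested, and 4 alpha genes were called higher. 2 small values changed sign, short of the threshold: Pcdh17 ran from -0.2729 to 0.0096 with 1 line left out, the latter without KO line 16, and Pcdh18 at -0.0091 without WT line 19 and KO line 3. The cause was not tested. No paired analysis was possible because the genotypes share only the line number 3. Depth limits the alpha array, where 12 of 15 rows held at most 7 counts in every line.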

Other observations

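The genes that lie between the first alpha exon and the end of Pcdh12 on chromosome 18 without being protocadherins were read after the results above were known. Of 7 such genes, 3 rose and 1 fell in the KO-labelled lines in edgeR's test, beside 42.3% called among all genes, with a median log2 fold change of 0.09. Taf7 and Slc25a2, which sit between the beta and gamma arrays, were at 6.36 ± 1.29 and 0.997 ± 0.15 CPM in WT and 6.13 ± 0.35 and 0.69 ± 0.09 CPM in KO-labelled lines (SD, n = 3 each) and did not pass. Hdac3, a histone deacetylase gene, rose from 139 ± 4.44 to 186 ± 9.59 CPM, and Fchsd1 fell from 21.1 ± 1.20 to 14.1 ± 2.69 CPM. The genes of the stretch that are not protocadherins thus moved in both directions or did not pass.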
